A study of Mus musculus with 9 samples.

Results

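The enzymes examined here make and break down serine, glycine and threonine and handle the carbon units that these amino acids give to folate. They were given as 10 genes: Tdh, Gcat, Gldc, Amt, Shmt1, Shmt2, Mthfd2, Phgdh, Psat1 and Mat2a. A gene was measured through a probe set, a group of short probes on the array, whose annotation names that gene and no other, and the brightest such probe set was taken where a gene had several. This gave 8 of the 10 genes, among 19938 genes measured in the same way. Tdh, threonine dehydrogenase, and Mat2a, which makes S-adenosylmethionine, have no such probe set in the annotation and were not analysed here.

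The study hybridised RNA to 9 Affymetrix whole-transcript arrays, 3 for each of 3 groups of mouse cells. The iPS cells, induced to pluripotency and so able in principle to form every tissue of the body, were made from mouse embryonic fibroblasts. R1 is an established mouse embryonic stem cell line. The MEF are embryonic fibroblasts grown in culture below passage 3, and they are the cells the iPS cells came from. R1 and MEF were the controls for the iPS cells. The labels give no strain, inducing factors, feeder layer, culture medium or number of iPS clones, and embryonic stem cells are represented by R1 alone. The arrays of a group are described as biological repeats, with no mention of separate derivations. The p-values below therefore set group differences against the variation among these arrays only.

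Serine is made from a glycolytic intermediate by Phgdh, Psat1 and a phosphatase. Serine hydroxymethyltransferases split it into glycine and a carbon unit on folate, Shmt1 in the cytosol and Shmt2 in mitochondria. The mitochondrial glycine cleavage system, with Gldc and Amt among its parts, takes a further carbon unit from glycine, and mouse embryonic stem cells are known to feed that system from threonine through Tdh and Gcat.

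The promoters of the 4 enzymes that passed the threshold defined below in at least 1 comparison are shown first, because these enzymes were the ones called. Each is the 250 bases before the RefSeq start of the gene in the build GRCm38.p6, read 5′ to 3′ on the strand of the gene, and capitals mark every match to the motifs named after them. They lie at chr19:30175442-30175691 (minus strand, Gldc), chr9:108296655-108296904 (plus strand, Amt), chr11:60811266-60811515 (minus strand, Shmt1) and chr3:98339970-98340219 (minus strand, Phgdh).
Gldc: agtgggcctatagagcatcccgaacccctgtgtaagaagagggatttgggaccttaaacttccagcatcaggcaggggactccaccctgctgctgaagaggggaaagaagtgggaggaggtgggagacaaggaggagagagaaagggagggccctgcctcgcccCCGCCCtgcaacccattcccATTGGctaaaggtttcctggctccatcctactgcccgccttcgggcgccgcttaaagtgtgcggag
Amt: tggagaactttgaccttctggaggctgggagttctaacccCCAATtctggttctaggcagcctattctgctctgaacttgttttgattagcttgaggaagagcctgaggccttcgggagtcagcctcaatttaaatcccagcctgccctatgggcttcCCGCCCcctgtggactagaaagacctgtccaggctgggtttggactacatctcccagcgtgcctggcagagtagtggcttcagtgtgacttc
Shmt1: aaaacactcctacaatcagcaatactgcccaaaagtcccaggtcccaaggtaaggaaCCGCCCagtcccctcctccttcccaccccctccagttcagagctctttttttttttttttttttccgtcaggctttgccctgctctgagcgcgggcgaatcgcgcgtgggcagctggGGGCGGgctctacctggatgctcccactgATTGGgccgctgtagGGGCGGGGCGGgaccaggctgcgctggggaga
Phgdh: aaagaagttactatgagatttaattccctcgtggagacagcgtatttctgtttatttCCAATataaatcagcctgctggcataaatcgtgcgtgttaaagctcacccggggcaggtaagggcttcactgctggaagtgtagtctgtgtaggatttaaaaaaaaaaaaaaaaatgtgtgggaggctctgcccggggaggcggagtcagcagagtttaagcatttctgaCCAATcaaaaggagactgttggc
The search covered 5 motifs on both strands: CCAAT, the CCAAT box; GGGCGG, the GC box; CACGTG, an E-box; TGATGNAA, the element bound by ATF4; and ATGCAAAT, the octamer bound by Oct4. Matches to TGATGNAA and ATGCAAAT can overlap each other. RefSeq promoters were found for 9 of the 10 listed genes, all but Tdh, and Psat1 has 2 starts there. An enzyme was counted where any of its starts matched, while the shares of all promoters count each promoter by itself. Psat1 matched CCAAT at 1 start and GGGCGG at the other. CCAAT occurred in 6 of the 8 measured enzymes (Gldc, Amt, Shmt1, Mthfd2, Phgdh and Psat1) and in 33.8% of 32851 promoters of the same length. GGGCGG occurred in 5 of the 8 (Gcat, Gldc, Amt, Shmt1 and Psat1) and in 32.7% of all promoters. CACGTG, TGATGNAA and ATGCAAAT, which 6.02%, 3.45% and 1.6% of all promoters hold, had no match in the windows of the measured enzymes. A match describes the letters in the window, and no binding was measured.

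The 9 arrays were alike in overall brightness, with median signals between 78.2 and 83.3 in arbitrary units, and log2 signals of arrays in 1 group correlated at 0.995 or more across genes. All 7 pluripotent cell markers were called higher in iPS cells and in R1 cells than in MEF, and all 7 measured fibroblast markers were called lower. Between iPS and R1 cells only Zfp42 of these markers was called, lower in iPS cells (difference -2.77, limma adjusted p = 2.91e-06). Its mean signals were 506 in iPS and 3539 in R1 cells. Esrrb was lower in iPS cells (-0.50, adjusted p = 0.0352) and Col1a1 higher (0.665, adjusted p = 0.0289), with neither called. Markers are named here outside the rule for named genes. Summed signals of the fibroblast markers were 2809 to 3499 on iPS arrays, 1919.9 to 2814 on R1 arrays and 26892 to 31049 on MEF arrays, with no marker at 0. Those of 4 skeletal muscle markers were 453 to 601 on iPS arrays, 450.1 to 511 on R1 arrays and 5468 to 6598 on MEF arrays, and all 4 were called lower in iPS and R1 cells. The 4 macrophage markers summed to 333 to 363 on iPS arrays, 378 to 403 on R1 arrays and 185 to 224 on MEF arrays, and the 4 endothelial markers to 329.8 to 450.1, 433 to 496 and 186 to 239 in the same order of groups, with 1 gene of each list called higher in iPS and R1 cells, Cd68 and Pecam1. Csf1r, Adgre1 and Ptprc, the other macrophage markers, averaged between 21.5 and 43.6 in every group, and none passed by adjusted p. Of the other endothelial markers, Tek was higher by 0.79 in iPS and 0.87 in R1 cells, without a call. Kdr was lower in iPS cells (-0.41, limma adjusted p = 0.0107), and Cdh5 passed in neither comparison with MEF. The part of other cell types in the enzyme values was not tested, and in such bulk samples fewer cells of a type and less RNA per cell cannot be told apart.

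A gene was called where limma's test over all 9 arrays gave a Benjamini-Hochberg adjusted p below 0.05 over 19938 genes and the difference in log2(signal + 16) was at least 1. In iPS cells, 3 of the 8 enzymes rose against MEF, Gldc, Amt and Shmt1, and none fell. Calls over the whole array in this comparison were 5.08% of genes higher and 7.57% lower. In R1 cells the same 3 genes rose against MEF and 1, Phgdh, fell, against a background of 5.56% of genes higher and 7.93% lower. The 2 comparisons share the MEF arrays. Between iPS and R1 cells none of the 8 was called, and 0.461% of all genes were.

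By adjusted p alone, 8 of 8 enzymes passed in iPS cells against MEF, 4 with higher and 4 with lower signal, where 48.0% of all genes passed. In R1 cells against MEF 7 of 8 passed, 4 higher and 3 lower, against 48.9% of all genes. The array values of the groups did not overlap for 8 of 8 enzymes between iPS and MEF and for 7 of 8 between R1 and MEF, where 52.3% and 54.3% of all genes were likewise apart. The median difference over the 8 enzymes was 0.14 for iPS and 0.21 for R1 cells against MEF, beside 0.02 for both over all genes. With 4 enzymes above 0 and 4 below, these medians lie in a gap and describe no enzyme. The gap ran from Psat1 at -0.30 to Gcat at 0.59 in iPS cells, and from Shmt2 at -0.16 to Gcat at 0.58 in R1 cells.

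**Figure D1:**
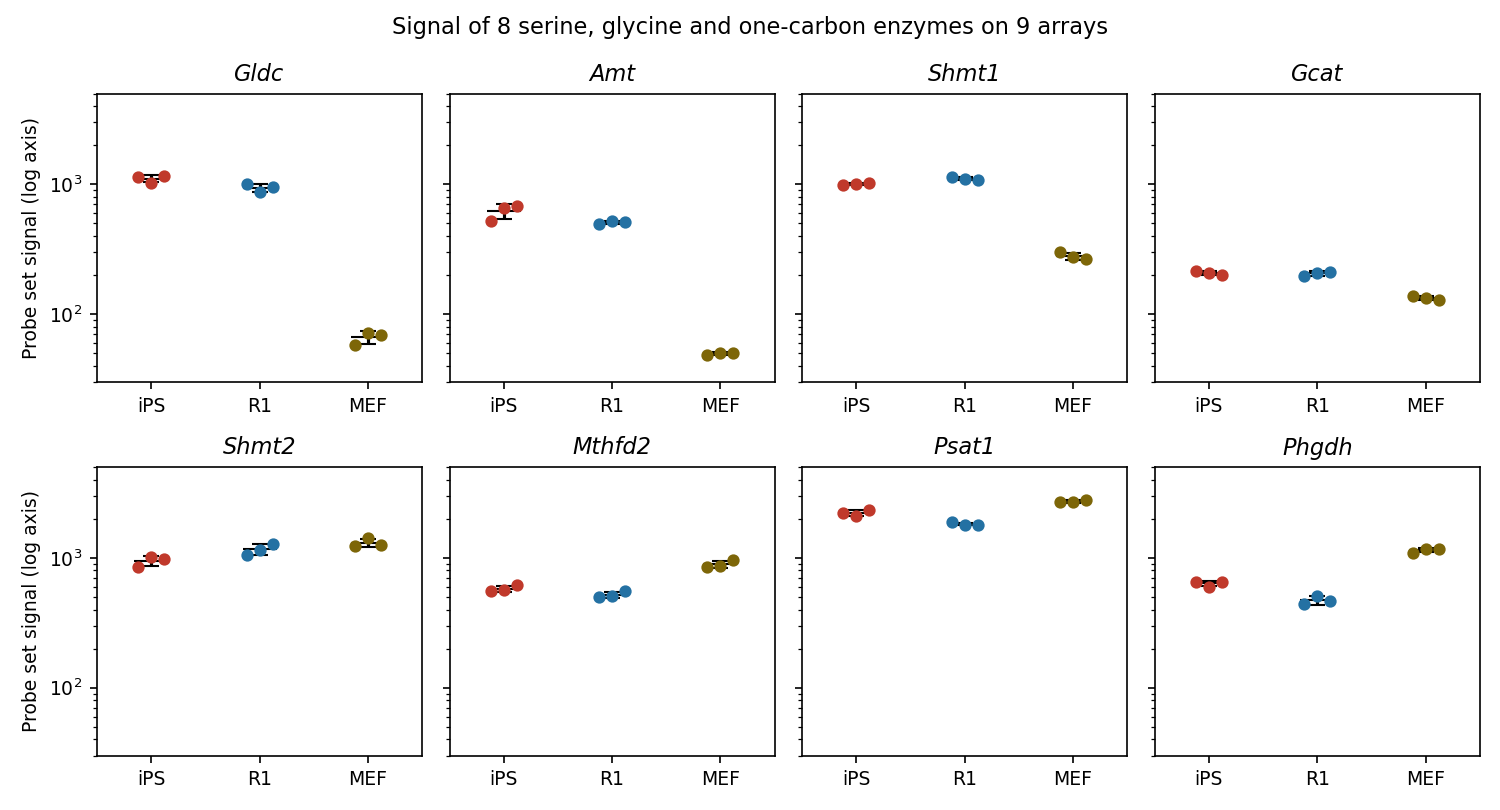
Signal of each of the 8 enzymes on each array (logarithmic vertical axis, arbitrary units), with iPS, R1 and MEF from left to right. Points are arrays and bars the group mean with its SD (n = 3). Gldc, Amt and Shmt1 are high in iPS and R1 and low in MEF, while Phgdh, Psat1 and Mthfd2 are highest in MEF.

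The glycine cleavage enzymes showed the widest differences of the 8. Gldc, the glycine decarboxylase or P-protein (probe set 10466976), had signals of 1144, 1024 and 1152 on the iPS arrays, 1009.9, 873 and 949 on the R1 arrays, and 58.1, 72.0 and 69.1 on the MEF arrays. Every iPS and R1 array lay far above every MEF array. Mean signals were 1107 ± 71.7 in iPS cells, 944 ± 68.5 in R1 cells and 66.4 ± 7.34 in MEF (SD, n = 3 each). Gldc rose by 3.77 in iPS cells against MEF on the log2(signal + 16) scale (95% interval 3.59 to 3.95, limma adjusted p = 1.54e-09), and 0.311% of all genes had a larger absolute difference. It rose by 3.54 in R1 cells against MEF (3.36 to 3.73, adjusted p = 1.44e-09). The iPS arrays were all above the R1 arrays, by a mean of 0.23 (0.04 to 0.41), which missed the threshold at a limma adjusted p of 0.141.

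Amt, the aminomethyltransferase or T-protein that moves the carbon unit of glycine to folate (probe set 10588883), had signals of 526, 662 and 676 on the iPS arrays, 491, 519 and 508 on the R1 arrays, and 48.5, 50.6 and 50.2 on the MEF arrays. The MEF values lay close together and apart from both other groups, at the dim end of the arrays, where 30.1% of genes averaged under 50, and the log2(signal + 16) scale understates differences from dim signals. Amt rose by 3.27 in iPS cells against MEF (3.08 to 3.46, limma adjusted p = 3.01e-09) and by 2.99 in R1 cells against MEF (2.80 to 3.18, adjusted p = 4.39e-09). The iPS arrays spread most here, with a coefficient of variation of 13.3%, and iPS replicate 1 was the lowest of them. iPS cells exceeded R1 cells by 0.28 (0.09 to 0.47, limma adjusted p = 0.0812), and without iPS replicate 1 by 0.39 (adjusted p = 0.00264, in a range of 0.00264 to 0.233 over 20 alternatives).

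The other parts of the glycine cleavage system, Gcsh and Dld, were not called; both are named here outside the rule for named genes, to complete the complex. Gcsh, the H-protein of the complex, was higher by 0.56 in iPS and 0.49 in R1 cells than in MEF. Both differences were below the minimum (limma adjusted p = 0.000497 and 0.00113). Dld, the L-protein that the complex shares with other mitochondrial dehydrogenases, was lower by 0.27 in iPS cells (difference -0.27, adjusted p = 0.0012) and by 0.23 in R1 cells (difference -0.23, adjusted p = 0.00292). The 4 genes of the system thus had differences from MEF of unequal size and sign in both cell types.

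Gcat, which turns the product of threonine dehydrogenase into glycine (probe set 10425211), had signals of 214, 209.4 and 199.5 on the iPS arrays, 197, 209.4 and 212 on the R1 arrays, and 138, 133 and 128 on the MEF arrays. The iPS and R1 arrays overlapped, and both lay above the MEF arrays. The difference from MEF was 0.59 in iPS cells (0.475 to 0.698, limma adjusted p = 4.84e-06) and 0.58 in R1 cells (adjusted p = 5.06e-06), below the minimum difference in both. Between iPS and R1 cells it was 0.01 with an interval of -0.10 to 0.12.

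**Figure D2:**
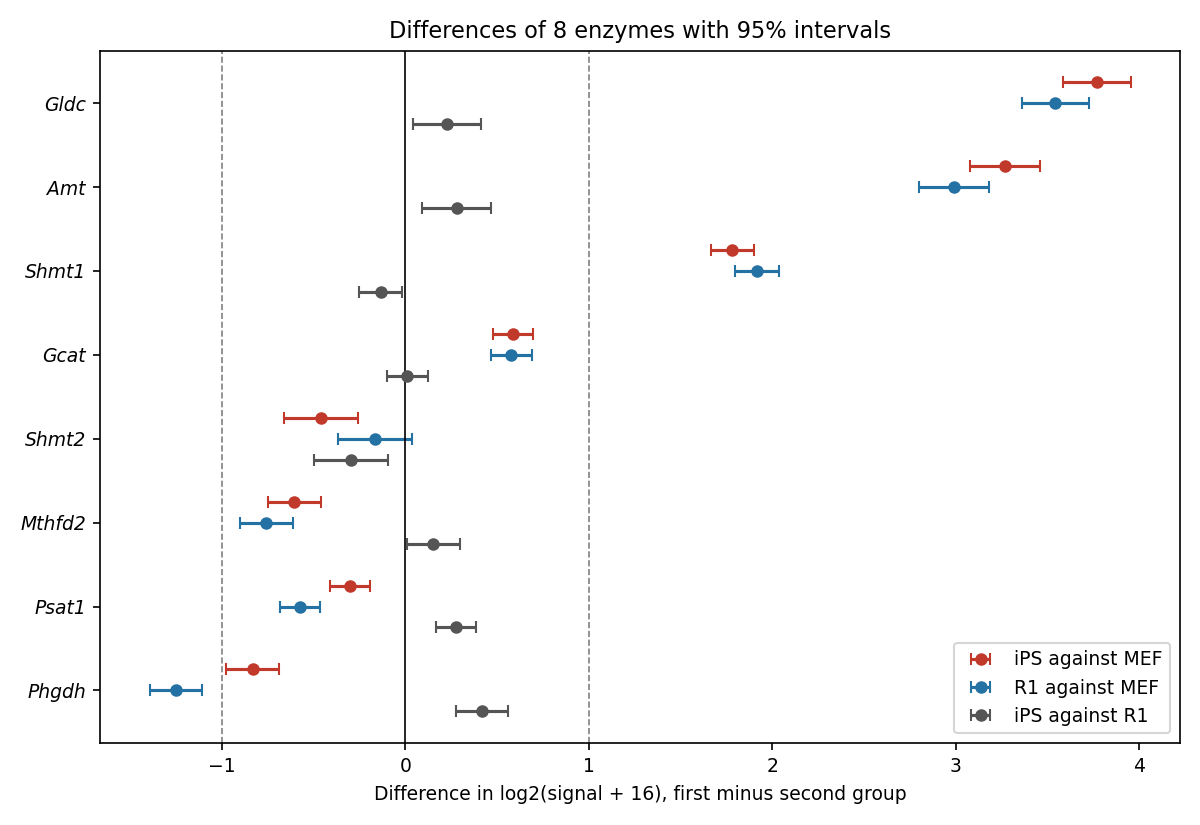
Difference of each enzyme in log2(signal + 16) with its 95% interval from limma, for the comparisons of iPS with MEF, of R1 with MEF and of iPS with R1. Dashed lines mark a difference of 1 either way. Gldc, Amt and Shmt1 lie beyond the line in both comparisons with MEF, Phgdh beyond the lower line in R1 against MEF, and no enzyme beyond it in iPS against R1.

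Of the serine hydroxymethyltransferases, the cytosolic Shmt1 rose in iPS and R1 cells against MEF, and the mitochondrial Shmt2 was called in neither. Shmt1, the cytosolic enzyme (probe set 10386604), had signals of 982, 1009.9 and 1017 on the iPS arrays, 1136, 1097 and 1075 on the R1 arrays, and 300.2, 276 and 265 on the MEF arrays. The values within each group were close, with a coefficient of variation of 1.83% over the iPS arrays. Shmt1 rose by 1.78 in iPS cells against MEF (1.66 to 1.90, limma adjusted p = 6.71e-09) and by 1.92 in R1 cells against MEF (1.80 to 2.04, adjusted p = 3.61e-09). Each iPS array was below each R1 array, with a difference of -0.13 (-0.25 to -0.02, limma adjusted p = 0.175).

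Shmt2, the mitochondrial enzyme (probe set 10373202), had signals of 849, 1009.9 and 976 on the iPS arrays, 1060.1, 1144 and 1287 on the R1 arrays, and 1243, 1409 and 1261 on the MEF arrays. The iPS arrays were the lowest, and the R1 and MEF arrays overlapped. The difference from MEF was -0.46 in iPS cells (-0.66 to -0.26, limma adjusted p = 0.0016) and -0.16 in R1 cells (-0.37 to 0.04, adjusted p = 0.17). Between iPS and R1 cells it was -0.30 (-0.50 to -0.09, limma adjusted p = 0.0807), and the adjusted p was 0.0404 with a replicate block, in a range of 0.0404 to 0.229 over 20 alternatives.

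The change in Shmt1 relative to Shmt2 was followed within arrays, with the pair chosen after its values were seen. The log2 ratio of Shmt1 to Shmt2 was higher by 2.24 in iPS cells and by 2.08 in R1 cells than in MEF, and every iPS and R1 array exceeded every MEF array. An exact two-sided permutation test over 3 against 3 arrays gave p = 0.1 for each, the smallest p possible here, and 0.15 after adjustment over 9 such tests. Between iPS and R1 cells the ratio differed by 0.16 (exact permutation p = 0.3, adjusted 0.337). On the same scale the ratio of Gldc to Amt was higher by 0.50 in iPS and 0.55 in R1 cells than in MEF. That of Psat1 to Phgdh was higher by 0.53 and 0.68 (exact permutation p = 0.1 and adjusted 0.15 for each of these). Gldc and Amt were both dim in MEF, with mean signals of 66.4 and 49.8, below the lowest array median of 78.2. Whether their balance shifted can thus not be read from this ratio. The changes of different ratios were not tested against each other.

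Mthfd2, the mitochondrial dehydrogenase and cyclohydrolase that oxidises the folate-bound carbon unit (probe set 10545672), had signals of 556, 568 and 613 on the iPS arrays, 498, 508 and 553 on the R1 arrays, and 855, 861 and 955 on the MEF arrays. All MEF arrays were above all others. The difference from MEF was -0.61 in iPS cells (-0.75 to -0.46, limma adjusted p = 2.37e-05) and -0.76 in R1 cells (-0.90 to -0.61, adjusted p = 4.39e-06), both short of the minimum difference. Between iPS and R1 cells it was 0.15 (0.01 to 0.30, adjusted p = 0.211).

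Of the serine synthesis enzymes, Phgdh and Psat1 had their highest signals in MEF, and the phosphatase Psph its lowest. Phgdh, the dehydrogenase of the first step (probe set 10500529), had signals of 657, 600.5 and 648 on the iPS arrays, 439.6, 512 and 465 on the R1 arrays, and 1097, 1160.1 and 1176 on the MEF arrays. The groups stood apart, with R1 lowest and iPS between. Phgdh fell by 1.25 in R1 cells against MEF (difference -1.25, -1.40 to -1.11, limma adjusted p = 1.35e-07). In iPS cells the difference from MEF was -0.83 (-0.98 to -0.69, adjusted p = 2.46e-06) and did not reach the minimum. A further probe set that the annotation assigns to Phgdh together with another symbol was left out.

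Psat1, the aminotransferase of the next step (probe set 10466410), had signals of 2195, 2106 and 2320.1 on the iPS arrays, 1872, 1795 and 1795 on the R1 arrays, and 2684, 2684 and 2798 on the MEF arrays. The order of the groups was that of Phgdh, with no overlap. The difference from MEF was -0.30 in iPS cells (-0.41 to -0.19, limma adjusted p = 0.000494) and -0.58 in R1 cells (-0.69 to -0.47, adjusted p = 4.7e-06). Psph, the phosphatase of the last step, was higher than in MEF by 0.35 in iPS and 0.41 in R1 cells (adjusted p = 0.000542 and 0.000179); it is named outside the rule, to complete the pathway.

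**Figure D3:**
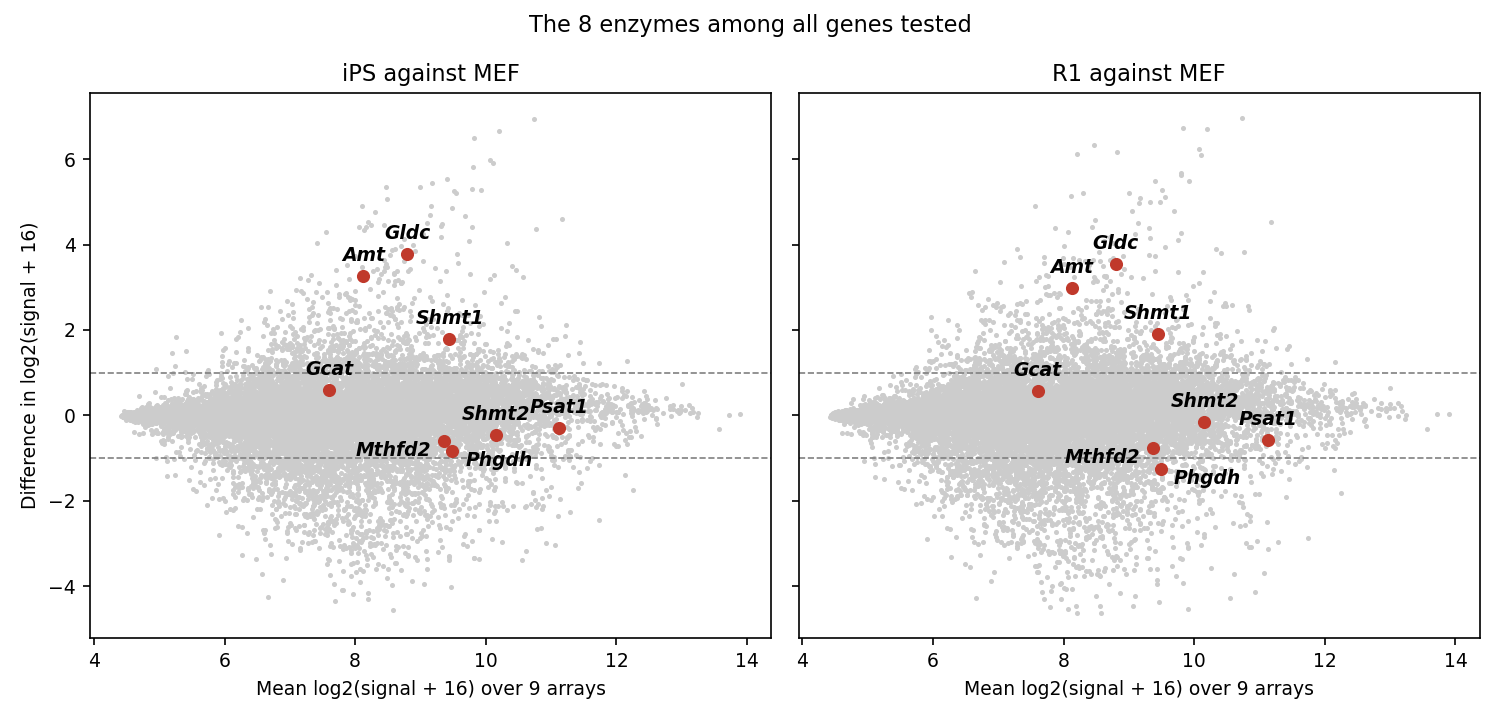
Difference in log2(signal + 16) against the mean over 9 arrays for all 19938 genes (grey), with the 8 enzymes in red, for iPS against MEF (left) and R1 against MEF (right). Dashed lines mark a difference of 1 either way. Gldc and Amt lie near the upper edge of the cloud and the other enzymes, Shmt1 apart, within its bulk or just below the lower line.

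iPS and R1 cells were set against each other to see how far the enzymes differed between the 2 pluripotent cell types. Phgdh and Psat1 were the enzymes with an adjusted p below 0.05, both with higher signal in iPS cells, and 8.52% of all genes passed this in either direction. The difference was 0.42 ± 0.06 (SE) for Phgdh (0.27 to 0.56, limma adjusted p = 0.00475) and 0.27 ± 0.05 for Psat1 (0.16 to 0.38, adjusted p = 0.00931), both below the minimum. The iPS and R1 arrays were apart for 7 of the 8 enzymes, all but Gcat, beside 21.9% of all genes. Intervals of all 8 differences lay between -0.50 and 0.56. The median over the enzymes was 0.19, beside -0.01 over all genes.

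The genes around these enzymes were taken as 7 lists of 76 genes, of which 66 were measured. In iPS cells against MEF 9 of the 66 rose and 6 fell, and in R1 cells against MEF likewise 9 rose and 6 fell. The background was 5.08% of genes called higher and 7.57% called lower for iPS, and 5.56% and 7.93% for R1, so the lower calls were near the background. Between iPS and R1 cells none was called, beside 0.461% of all genes, and 7 had an adjusted p below 0.05, a share near the 8.52% of all genes.

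Among the other folate enzymes 8 of 11 were measured, and 1 rose and 2 fell in each comparison with MEF. Beside this, 5.08% of all genes rose and 7.57% fell in iPS cells, and 5.56% and 7.93% in R1 cells. The list median was 0.16 in iPS and 0.24 in R1 cells. Mthfd1, the cytosolic enzyme that joins several steps of folate conversion, had signals of 1898, 2048 and 2150 on the iPS arrays, 2048, 1992 and 2077 on the R1 arrays, and 843, 709 and 792 on the MEF arrays. It rose by 1.36 in iPS and 1.37 in R1 cells (limma adjusted p = 1.6e-07 and 1.34e-07). Mthfd2l, a mitochondrial relative of Mthfd2, fell in both (differences -1.64 in iPS and -1.70 in R1 cells). Aldh1l2, the mitochondrial dehydrogenase that releases the carbon unit as carbon dioxide, had signals of 49.2, 54.9 and 49.9 on the iPS arrays, 47.2, 48.8 and 47.8 on the R1 arrays, and 360, 478 and 443 on the MEF arrays. It fell in both (differences -2.71 in iPS and -2.78 in R1 cells, adjusted p = 1.17e-08 and 8.26e-09). Its iPS and R1 signals lay near the dim end of the arrays, as those of Amt in MEF did.

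Of the other glycine and serine enzymes 11 of 13 were measured, with medians of 0.04 in iPS and 0.07 in R1 cells. Pipox, a peroxisomal oxidase of sarcosine and pipecolic acid, had signals of 246, 290.0 and 315 on the iPS arrays, 491, 443 and 495 on the R1 arrays, and 37.0, 29.7 and 41.4 on the MEF arrays. It rose by 2.53 in iPS and 3.25 in R1 cells (limma adjusted p = 4.18e-08 and 7.93e-09). Sardh, the mitochondrial sarcosine dehydrogenase, fell in both (differences -1.10 in iPS and -1.24 in R1 cells). Both remove the methyl group of sarcosine to give glycine, and they differed from MEF in opposite directions. Pipox also differed between iPS and R1 cells by -0.72 (adjusted p = 0.00343).

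All 7 genes of folate transport and retention were measured, and 1 rose and none fell in either comparison with MEF. Over all genes 5.08% rose and 7.57% fell in iPS cells, and 5.56% and 7.93% in R1 cells. The list medians were 0.06 in iPS and near 0 in R1 cells. The gene that rose was Folr1, a folate receptor, by 1.80 in iPS and 1.29 in R1 cells (limma adjusted p = 5.73e-08 and 4.26e-07). Its signals were 309, 350 and 329 on the iPS arrays, 218, 242 and 220 on the R1 arrays, and 93.7, 82.1 and 74.5 on the MEF arrays, with no overlap of any groups. The difference of iPS from R1 cells was 0.51 (adjusted p = 0.00488).

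In the methionine cycle and transsulfuration 14 of 15 genes were measured, with medians of 0.27 in iPS and 0.36 in R1 cells. In iPS cells 2 rose and 2 fell against MEF, and in R1 cells 3 rose and 2 fell. Beside this, 5.08% of all genes rose and 7.57% fell in iPS cells, and 5.56% and 7.93% in R1 cells. Cbs and Cth, which turn homocysteine and serine into cysteine, both rose. Cth rose by 1.97 in iPS and 1.48 in R1 cells (limma adjusted p = 7.81e-07 and 5.5e-06), and Cbs by 1.29 and 1.51 (2.75e-07 and 8.59e-08). Mtap, which salvages methionine, fell in both (differences -1.07 in iPS and -1.23 in R1 cells), and Ahcyl1, a relative of S-adenosylhomocysteine hydrolase, fell likewise (-1.03 and -1.02). The call of Ahcyl1 was lost without MEF replicate 3, at -0.997 in iPS and -0.98 in R1 cells, and in R1 cells also without R1 replicate 3, at -0.97. Mettl16, a methyltransferase known to act on the Mat2a transcript and named outside the rule, was called in R1 cells at 1.003 and not in iPS cells at 0.9998, so its call turned on the third decimal. It was lost in R1 cells without R1 replicate 2 or MEF replicate 2, at 0.95 and 0.96, and gained in iPS cells without iPS replicate 1 or 2 or MEF replicate 1 or 3, at 1.01 to 1.05.

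Purine synthesis consumes glycine and folate-bound carbon. Of its 9 measured genes of 10 listed, 2 rose in each comparison with MEF and none fell. Over all genes 5.08% rose and 7.57% fell in iPS cells, and 5.56% and 7.93% in R1 cells. The list median was 0.39 in iPS and 0.34 in R1 cells. Ppat, the first committed enzyme, rose by 1.48 in iPS and 1.38 in R1 cells (limma adjusted p = 1.36e-08 and 1.63e-08). Gart, which uses glycine and a folate-bound formyl group, rose by 1.19 and 1.20 (1.77e-07 and 1.4e-07). None of the 4 measured genes of polyamine synthesis, of 7 listed, was called in any comparison.

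The ATF4 programme, genes known to respond to amino acid shortage, was measured in 13 of 13 genes. Known targets of ATF4 include serine synthesis enzymes. The list median was -0.15 in iPS and -0.44 in R1 cells against MEF. In iPS cells 2 of the 13 rose and 1 fell, and in R1 cells 1 rose and 1 fell. Over all genes 5.08% rose and 7.57% fell in iPS cells, and 5.56% and 7.93% in R1 cells. Atf4 itself differed from MEF by -0.15 in iPS cells (limma adjusted p = 0.144) and by -0.44 in R1 cells (adjusted p = 0.000669), and is named outside the rule. Sesn2, a stress-induced leucine sensor, rose by 1.09 in iPS and 1.33 in R1 cells, and without MEF replicate 1 the difference in iPS cells was 0.985 and not called. Slc7a11, the cystine transporter, fell in both (differences -1.59 in iPS and -1.88 in R1 cells). Ddit4, a stress-induced inhibitor of mTORC1, had signals of 488, 282 and 422 on the iPS arrays against 163, 224 and 144 on the MEF arrays and rose by 1.08 in iPS cells (adjusted p = 0.00118). The call was lost without iPS replicate 1, at 0.92, or without MEF replicate 3, at 0.96.

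Because folate-bound carbon is used for DNA synthesis, 10 proliferation genes were listed beside the enzymes and 9 were measured. In each comparison with MEF 3 rose and none fell, with medians of 0.51 in iPS and 0.56 in R1 cells. Of all genes, 5.08% were called higher in iPS and 5.56% in R1 cells. The called genes were Mcm2, Mcm3 and Mcm5, parts of the replicative helicase, which rose by 1.16, 1.19 and 1.20 in iPS and by 1.14, 1.21 and 1.28 in R1 cells. By adjusted p alone 6 of the list were higher and 1 lower in each comparison. Of all genes, 48.0% passed by adjusted p in iPS and 48.9% in R1 cells, in either direction. The lower gene was Mki67 in iPS cells (-0.23, limma adjusted p = 0.0086) and Cdk1 in R1 cells (-0.34, adjusted p = 0.00152). Both are named outside the rule. The part of proliferation in the enzyme values was not tested.

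**Figure D4:**
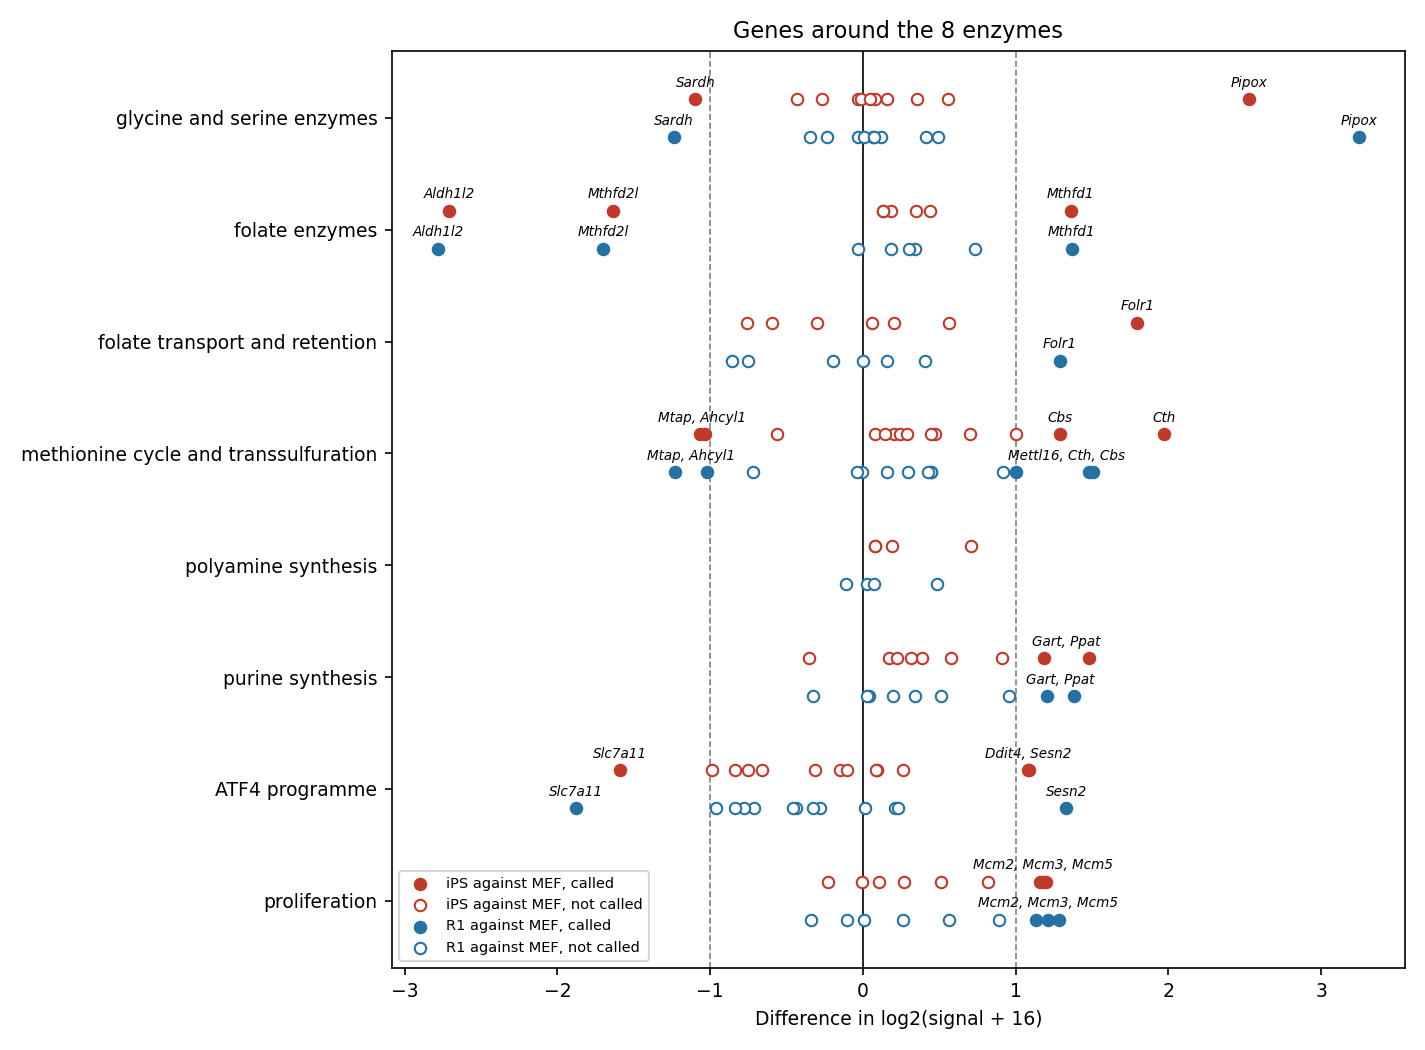
Difference in log2(signal + 16) from MEF for each measured gene of the 7 surrounding lists and the proliferation list, with iPS against MEF above R1 against MEF in each row. Filled points are called and named, and dashed lines mark a difference of 1 either way. Aldh1l2 lies farthest to the left and Pipox farthest to the right in both comparisons.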

How the data were processed

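RNA of 9 mouse cell samples was labelled and hybridised to Affymetrix whole-transcript arrays, per the labels' protocols. The authors deposited 1 table of linear signal intensity per probe set and array. GCOS 1.4 is named in the submitters' processing notes; how background was corrected and arrays were normalized was not given in the sources used here. On the log2 scale, 100% of the deposited intensity values are whole to 2 decimals within 0.001, so equal signals on different arrays can come from rounding.

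Of 35557 probe sets, 21789 have 1 gene symbol in the platform annotation, which can be old, and these cover 19938 genes. Each gene was represented by the probe set with the highest mean log2(signal + 16), where 16 is the pseudocount. No filter on low values was applied, and all 8 measured enzymes averaged above 50 over the 9 arrays, Amt through its iPS and R1 arrays, with a MEF mean of 49.8. The values carry no detection call, so a dim signal gives only an upper bound on a level, and fold changes of dim genes are understated on this scale. Array number, 3 a group, limits the precision. No 2 arrays held identical values.

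Differences were tested in R 4.3.3 with limma 3.58.1 in 1 fit of 9 arrays with 6 residual degrees of freedom and Benjamini-Hochberg adjustment over all genes. The steps were tested on simulated data. Replicate numbers are not stated to pair the arrays. Correlations of same-numbered arrays' deviations from their group means ran from 0.21 to 0.245 for replicate 1. They ran from 0.017 to 0.196 for replicate 2 and from -0.082 to -0.018 for replicate 3. Shared handling of same-numbered arrays was not tested. The fit was repeated with other pseudocounts, normalizations, filters, probe set rules, spread models, thresholds, a replicate block and each array left out.

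Members and lists were chosen with earlier results of these data known. Named were all measured enzymes and, per surrounding list, up to 4 called genes in each comparison with MEF and up to 2 between iPS and R1, by size of difference, and other genes are said to be outside that rule. A part of the rule that asked for genes most like Tdh was not applied, because Tdh was not analysed here. Promoter sequences are from RefSeq.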

Additional observations from a re-analysis of the deposited data

Results flagged for a closer look

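For 2 enzymes the difference from MEF was itself different between iPS and R1 cells, by the limma test of iPS against R1 in which the shared MEF arrays cancel. It is the same test as given above, not a further one, and 8.52% of all genes passed it in either direction. Both differences were below the minimum of 1. The difference for Phgdh was 0.42 (adjusted p = 0.00475), with signals of 635 ± 30.4 in iPS cells, 472 ± 36.8 in R1 cells and 1145 ± 41.6 in MEF (SD, n = 3 each). The adjusted p ran from 0.00267 to 0.0212 over 20 alternatives that tested against a difference of 0. The difference for Psat1, the next enzyme of serine synthesis, was 0.27 (adjusted p = 0.00931), with signals of 2207 ± 108 in iPS cells, 1821 ± 44.0 in R1 cells and 2722 ± 65.8 in MEF, and the adjusted p ran from 0.00269 to 0.0372. Each was higher on 3 of 3 iPS arrays than on any R1 array.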

How the results depend on the processing

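The calls of the enzymes rested on the minimum difference more than on any other setting. With none, 8 enzymes in place of 3 were called in iPS cells against MEF, 7 in place of 4 in R1 cells against MEF, and 2 in place of 0 between iPS and R1 cells, and of the surrounding genes 44 and 45 in place of 15 each and 7 in place of 0. Tested against a difference of 1, 9 surrounding genes were called in iPS cells. Leaving out each array in turn left 3, 4 and 0 enzymes called; between iPS and R1 cells it gave 0 to 1 surrounding genes, the 1 being Ddit4 without iPS replicate 2 (1.09, adjusted p = 0.00889 by limma). Outside the rule for named genes, Nupr1, at -1.04 in iPS and -1.02 in R1 cells, came to be called without MEF replicate 1 (in iPS cells also without iPS replicate 3, at -1.0008), and Pfas in R1 cells without R1 replicate 2, at 1.02. Nupr1 was also called with median centring (-1.04 in iPS and -1.01 in R1 cells), with a pseudocount of 1 (-1.08 and -1.05) and, in iPS cells, with quantile normalization (-1.0019). Mettl16 lost its call in R1 cells with quantile normalization (0.9994), median centring (0.95) and array weights (0.957), and was called in iPS cells with a pseudocount of 1 or quantile normalization (1.02 each). The replicate block gave 3, 4 and 0 enzymes. The difference of Gcat between iPS and R1 cells ran from -0.0216 to 0.0356 as arrays were left out and was negative in 2 of these fits, the other at -0.0108. Amt passed between iPS and R1 cells with quantile normalization (adjusted p = 0.0344) and array weights (0.0101). Over all alternatives Gldc was higher by 3.17 to 4.04 in iPS cells and by 2.95 to 3.81 in R1 cells than in MEF, Amt by 2.58 to 3.61 and 2.33 to 3.32, and Shmt1 by 1.63 to 1.84 and 1.76 to 1.97, while Phgdh in R1 cells ran from -1.31 to -1.17. A pseudocount of 64 ended the calls of Ahcyl1 and Sardh in both comparisons with MEF, of Ddit4 and Sesn2 in iPS cells, and of Folr1 and Mettl16 in R1 cells; larger pseudocounts shrink differences of dim genes by construction. Depth of detection is unknown, since the table holds no background values.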
